A study of Mus musculus with 23 samples.

Results

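The fully grown mouse egg, an oocyte arrested in metaphase of meiosis II (MII), was compared with the primordial germ cell (PGC) of the E12.5 embryo, an early stage of the same lineage. Abundance was given as FPKM, fragments per kilobase of transcript scaled to the number of mapped fragments, from sequencing of poly(A) RNA. The genes compared were the 12484 of 22784 in the table that reached 1 FPKM in PGCs, in MII oocytes or in both. Differences are MII oocytes minus PGCs in log2(FPKM + 1), and the call higher or lower means that this difference reached 1 in size, which is 2-fold on this scale. The scale understates differences of genes with low values.

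Of the 23 samples in the series, 3 were PGCs of E12.5 embryos and 3 were MII oocytes of females aged 8 weeks. A further group, 3 samples of oocytes from secondary follicles at 8 days after birth, shows an intermediate stage of growth. All 3 groups were from B6D2F1 mice, with no treatment given in the labels. PGCs and secondary follicle oocytes were sorted by the BVSC transgenes, fluorescent reporters driven by the regulatory sequences of Prdm1 (BV) and Dppa3 (SC). Those genes therefore bear on how the cells were chosen. The labels give from 99 to 134 oocytes for each MII library and from 337 to 812 for each secondary follicle library. They give neither the number of PGCs nor the sex of the embryos. The table holds 1 value per gene and group, so no value here has a replicate spread, no difference has a test, and the read depth is unknown. In bulk samples, fewer cells of a type and less RNA per cell cannot be told apart. With poly(A) capture, fewer molecules of a message and shorter poly(A) tails cannot be told apart either.

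PGCs at this age have just settled in the gonad, still divide and still carry part of the network of transcription factors that sustains pluripotency. In the ovary they enter meiosis, arrest in prophase and, enclosed in follicles, grow into oocytes that build an egg coat and store messages for the embryo. Transcription stops before ovulation, so the MII egg lives on stored RNA. Maturation shortens the tails and removes many stored messages, while others gain longer tails and are translated.

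Expression at MII was more concentrated in few genes. The number of genes with at least 1 FPKM was 10850 in PGCs and 8902 in MII oocytes, whereas 9 genes reached 1000 FPKM in PGCs and 125 did in MII oocytes. The 100 most abundant genes held 18.7% of the summed FPKM in PGCs, 25.9% in secondary follicle oocytes and 37.3% in MII oocytes. The columns themselves summed to 277996 FPKM, 349772 FPKM and 975407 FPKM. The MII sum was thus 3.51 times that of PGCs, and differences were also computed after scaling the columns to equal sums, which moved the median difference of all genes compared from -0.46 to -1.83.

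As deposited, 4493 genes (36.0%) were higher in MII oocytes than in PGCs, 5457 (43.7%) were lower and 2534 lay within 2-fold. With equal sums, 2672 (21.4%) were higher and 7450 (59.7%) were lower. Of the genes called in either direction, 45.2% were higher as deposited and 26.4% with equal sums. The smaller set of higher genes lay wholly within the larger one, and all 5457 lower genes were lower with equal sums too. The 1821 genes that were higher only as deposited came within 2-fold with equal sums, and 0 genes changed sides. The scaling can only lower a difference, and by at most 1.81. The nesting of the sets and the absence of changed sides therefore follow from it and are not separate results. At the limit of 1 FPKM, Xlr5c was just included, with 1.00 FPKM in MII oocytes, and Zfp879 was just left out, with 0.998 FPKM in PGCs.

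**Figure D1:**
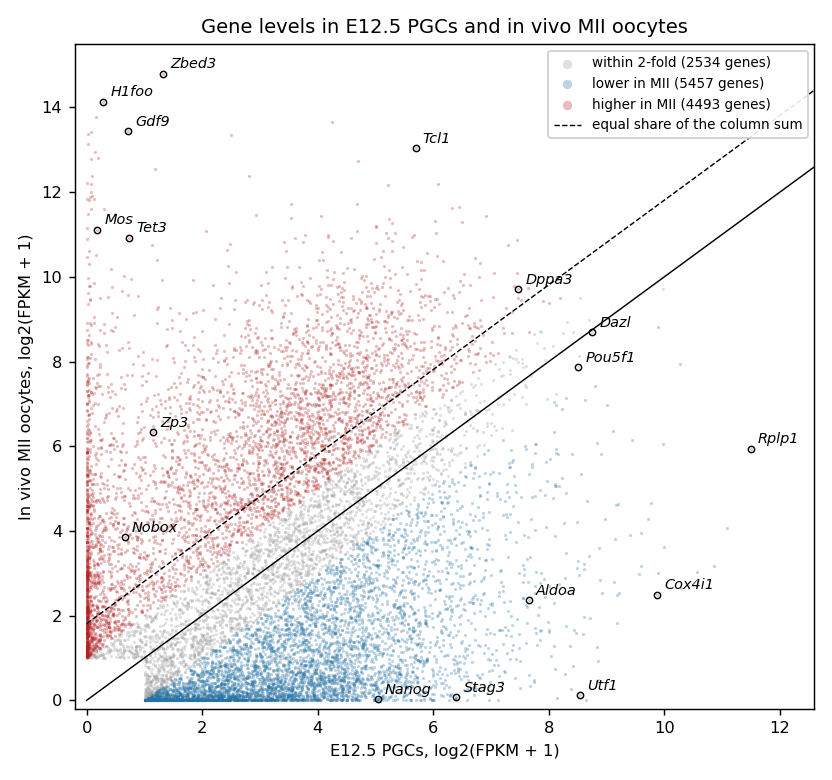
log2(FPKM + 1) in E12.5 PGCs (x axis) against in vivo MII oocytes (y axis), 1 point per gene compared and coloured by call, with a solid line at equal levels and a dashed line at equal shares of the column sums. Named genes of the largest differences lie near the axes, H1foo and Zbed3 high on the MII axis and Utf1 far along the PGC axis.

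The groups carried the defining genes of their labels. The 8 PGC markers looked at (Dppa3, Pou5f1, Prdm1, Tfap2c, Nanos3, Dnd1, Dazl and Ddx4) lay between 13.8 FPKM for Prdm1 and 432 FPKM for Dazl in PGCs. Only 3 of the 8 were lower in MII oocytes as deposited, 4 were within 2-fold and Dppa3 was higher. With equal sums 6 were lower and 2 within 2-fold. Prdm1 and Dppa3 are also the genes of the reporters used for sorting. The 8 oocyte markers (Mos, Zp3, Gdf9, Bmp15, Nlrp5, Zar1, H1foo and Npm2) were all at or below 1.22 FPKM in PGCs and all higher in MII oocytes, on both scales. Markers of other cell types were mostly low, and their part in the results was not tested. The 18 granulosa and cumulus genes summed to 12.1 FPKM in PGCs, 30.6 in secondary follicle oocytes and 82.5 in MII oocytes. Of the 18, 17 were below 1 FPKM in PGCs, so nearly all of the 11 compared passed the filter only through MII oocytes. As deposited, such genes cannot be called lower, and 9 of the 11 were higher, against 36.0% of all genes compared. With equal sums 6 were higher and 1 lower. The aromatase gene Cyp19a1 alone held 42.2 FPKM of the MII sum, while Foxl2 was at 0.0489 FPKM and the FSH receptor gene Fshr was listed at 0. The 13 markers of gonadal supporting cells and stroma summed to 29.4, 12.9 and 69.1 FPKM in the same order, most of it from Vim in PGCs and from Gata4 in the oocytes, with Wt1, Col3a1 and Dcn listed at 0 in MII oocytes. The 14 markers of blood and endothelium summed to 71.4, 9.66 and 121 FPKM, of which the adhesion molecule Pecam1 held 63.0, 9.54 and 117 FPKM.

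The genes with the largest differences toward MII were oocyte genes at or below 1.49 FPKM in PGCs. H1foo, the linker histone of the oocyte, was at 0.216 FPKM in PGCs, 1693 in secondary follicle oocytes and 18049 in MII oocytes, a difference of 13.86 and 12.93 with equal sums. Bcl2l10, a member of the Bcl2 family, was at 0.119 FPKM in PGCs, 665 in secondary follicle oocytes and 14022 in MII oocytes. Zbed3, whose protein belongs to the subcortical maternal complex of the egg, was the most abundant message of the MII column at 28436 FPKM, against 2989 in secondary follicle oocytes and 1.49 in PGCs. These genes were already abundant in secondary follicle oocytes and higher again in the egg. The same held for Btg4, an adaptor that brings the CCR4-NOT deadenylase to maternal messages, at 0.0189 FPKM in PGCs, 237 in secondary follicle oocytes and 10543 in MII oocytes, a difference of 13.34. Gdf9, the growth factor that oocytes send to granulosa cells, was at 0.637 FPKM in PGCs, 2936 in secondary follicle oocytes and 11132 in MII oocytes. Plat, tissue plasminogen activator, whose stored message is a classic case of tail lengthening during maturation, was at 0.147 FPKM in PGCs, 173 in secondary follicle oocytes and 7176 in MII oocytes. Completing the 12 largest differences were Rfpl4, Oosp3, Obox5, Oas1d, Oog3 and Tcl1b1, genes of oocyte-expressed families, at 3682 to 10958 FPKM in MII oocytes. In PGCs these genes were at or below 0.0580 FPKM, and Oosp3 was listed at 0. Reads can be shared among the near-identical copies of the Obox, Oog, Oas1 and Tcl1b families, so the split among their members is uncertain.

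At the other end stood the pluripotency factor gene Utf1, a pair of Rhox homeobox genes, Ifitm1 and several ribosomal protein genes. Utf1, a chromatin-bound factor of pluripotent cells, was at 370.2 FPKM in PGCs, 0.0833 in secondary follicle oocytes and 0.0823 in MII oocytes, a difference of -8.42 and -9.63 with equal sums. Rhox5, an X-linked homeobox gene, was at 459 FPKM in PGCs, 0.114 in secondary follicle oocytes and 0.392 in MII oocytes, and its neighbour Rhox9 was at 281 FPKM in PGCs, 0.178 in secondary follicle oocytes and 0.0321 in MII oocytes. Ifitm1, an interferon-inducible membrane protein gene long used to mark early germ cells, was at 334 FPKM in PGCs, 0.166 in secondary follicle oocytes and 0.212 in MII oocytes. For these genes the low level had been reached by the secondary follicle stage. Rps4x, Rps26, Rps15 and Rpl18, ribosomal protein genes, differed in this: Rps26 was at 1248 FPKM in PGCs, 151 in secondary follicle oocytes and 5.29 in MII oocytes, so that both oocyte stages were lower than the one before. Cox4i1, a subunit of cytochrome c oxidase, was at 936 FPKM in PGCs, 459 in secondary follicle oocytes and 4.63 in MII oocytes, with most of its difference between the oocyte stages. Cct6a, a subunit of the chaperonin that folds actin and tubulin, was at 342 FPKM in PGCs, 46.7 in secondary follicle oocytes and 0.750 in MII oocytes. The lowest difference among the named genes was that of Rnu73b, at 399 FPKM in PGCs and listed at 0 in both oocyte groups, which is a very short RNA whose FPKM is uncertain.

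Promoter windows of the first genes in each ranking that have 1 window in the RefSeq table (build GRCm38.p6, 250 bases before to 50 bases after the start) are shown because the groups of genes differed in CpG content. They are written 5′ to 3′ on the strand of the gene, with each CG in capitals. Of the genes higher in MII oocytes, H1foo has its window at chr6:115944681-115944980 on the plus strand with 5 CpG, Rfpl4 at chr7:5116862-5117161 on the minus strand with 3, Btg4 at chr9:51115751-51116050 on the plus strand with 1 and Obox5 at chr7:15750120-15750419 on the plus strand with 1. Of the genes lower in MII oocytes, Utf1 has its window at chr7:139943606-139943905 on the plus strand with 17 CpG, Rhox5 at chrX:37754358-37754657 on the plus strand with 5, Ifitm1 at chr7:140967826-140968125 on the plus strand with 5 and Rps4x at chrX:102189342-102189641 on the minus strand with 13. The Rhox5 window lies upstream of and outside the span of the gene in the GENCODE M21 annotation, chrX:37804842-37808876.
H1foo: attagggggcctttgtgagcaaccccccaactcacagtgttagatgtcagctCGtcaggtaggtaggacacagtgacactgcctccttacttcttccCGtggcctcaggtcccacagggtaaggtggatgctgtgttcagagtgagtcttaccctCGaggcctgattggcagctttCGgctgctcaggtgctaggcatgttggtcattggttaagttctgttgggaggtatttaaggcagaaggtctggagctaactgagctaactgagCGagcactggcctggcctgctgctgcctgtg
Rfpl4: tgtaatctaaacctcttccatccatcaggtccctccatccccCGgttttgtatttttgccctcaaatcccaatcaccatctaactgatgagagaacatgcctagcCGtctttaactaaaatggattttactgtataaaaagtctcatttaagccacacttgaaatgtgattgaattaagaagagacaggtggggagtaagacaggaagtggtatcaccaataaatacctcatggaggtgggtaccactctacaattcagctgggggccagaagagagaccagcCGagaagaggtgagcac
Btg4: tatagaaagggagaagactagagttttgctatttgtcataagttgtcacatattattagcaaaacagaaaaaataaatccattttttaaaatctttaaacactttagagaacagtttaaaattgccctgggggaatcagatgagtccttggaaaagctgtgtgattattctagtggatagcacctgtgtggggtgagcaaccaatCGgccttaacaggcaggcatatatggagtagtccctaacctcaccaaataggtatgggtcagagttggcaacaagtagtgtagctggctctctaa
Obox5: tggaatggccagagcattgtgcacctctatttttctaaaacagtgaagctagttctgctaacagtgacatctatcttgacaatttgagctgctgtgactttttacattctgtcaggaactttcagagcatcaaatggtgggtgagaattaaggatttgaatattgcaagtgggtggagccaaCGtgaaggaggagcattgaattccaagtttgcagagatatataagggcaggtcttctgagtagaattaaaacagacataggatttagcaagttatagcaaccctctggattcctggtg
Utf1: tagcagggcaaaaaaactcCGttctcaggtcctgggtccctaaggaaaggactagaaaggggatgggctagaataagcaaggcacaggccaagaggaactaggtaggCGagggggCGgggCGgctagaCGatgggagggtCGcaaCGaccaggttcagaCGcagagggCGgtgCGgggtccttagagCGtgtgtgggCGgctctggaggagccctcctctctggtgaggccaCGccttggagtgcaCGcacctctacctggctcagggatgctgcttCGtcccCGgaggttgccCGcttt
Rhox5: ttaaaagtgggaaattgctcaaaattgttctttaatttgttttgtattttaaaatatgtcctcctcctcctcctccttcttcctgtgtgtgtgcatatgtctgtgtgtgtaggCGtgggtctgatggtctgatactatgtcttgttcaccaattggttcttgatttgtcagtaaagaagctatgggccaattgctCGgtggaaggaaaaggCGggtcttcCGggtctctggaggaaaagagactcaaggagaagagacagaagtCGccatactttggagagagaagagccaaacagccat
Ifitm1: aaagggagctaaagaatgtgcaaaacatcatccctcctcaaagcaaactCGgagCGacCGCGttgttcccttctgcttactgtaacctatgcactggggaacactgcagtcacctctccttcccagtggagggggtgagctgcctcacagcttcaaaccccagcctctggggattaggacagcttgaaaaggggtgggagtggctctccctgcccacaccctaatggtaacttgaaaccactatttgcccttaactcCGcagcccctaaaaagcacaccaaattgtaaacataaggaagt
Rps4x: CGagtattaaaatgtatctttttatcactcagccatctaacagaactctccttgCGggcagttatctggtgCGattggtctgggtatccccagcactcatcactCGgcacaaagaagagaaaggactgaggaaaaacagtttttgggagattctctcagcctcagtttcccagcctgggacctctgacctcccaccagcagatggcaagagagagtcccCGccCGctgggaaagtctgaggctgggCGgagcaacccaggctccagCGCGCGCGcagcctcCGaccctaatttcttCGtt

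Over all genes compared that have exactly 1 window in the table (7986), the ratio of observed to expected CpG had a median of 0.785, against 0.384 over all 32841 windows. Called genes as a whole differed little in the middle of the range, at 0.772 for higher genes and 0.781 for lower ones. They differed at the CpG-poor end: 258 of 2815 higher genes (9.17%) had at most 3 CpG in the window, against 100 of 3559 lower genes (2.81%) and 5.07% of all genes compared. With equal sums these shares were 12.2% of the higher and 2.69% of the lower genes. Among genes at least 100-fold higher, 137 had a window, and their median ratio was 0.373, with 31.4% at most 3 CpG. The share over all 32841 windows was also 31.4%. The 21 windows of genes at least 100-fold lower had a median of 0.769, and 0 had so few CpG. Oocyte gene families stood lowest, with a median of 0.139 over 21 windows, whereas ribosomal protein genes had 0.925 over 49. These are descriptions of letters in 1 window per gene, and the methylation of these promoters was not measured.

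**Figure D2:**
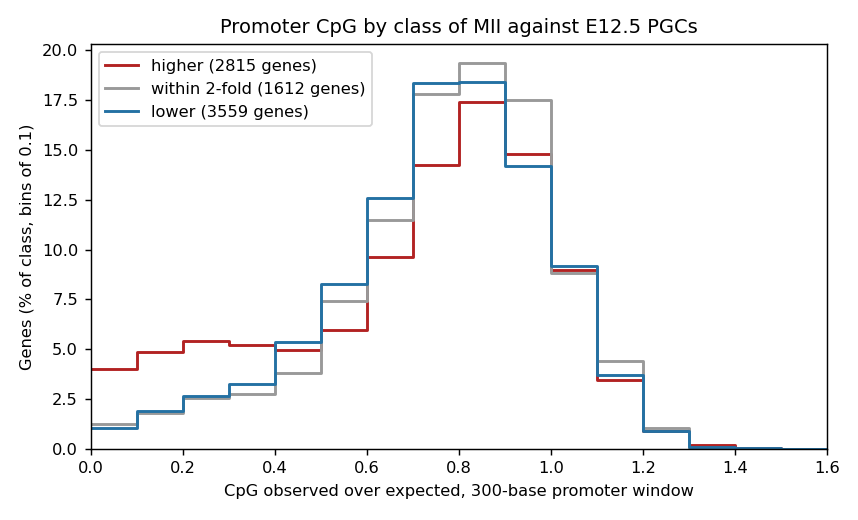
Share of genes (y axis, percent) by the ratio of observed to expected CpG in the promoter window (x axis), in bins of 0.1, for genes higher in MII oocytes, within 2-fold and lower. All 3 classes have most genes at high ratios, and the higher class has a larger share at the low end, where 9.17% of its genes have at most 3 CpG against 2.81% of the lower class.

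The same windows were searched on both strands for 5 short patterns. CANNTG, the E-box pattern that basic helix-loop-helix factors such as Figla bind, was in 84.7% of the windows of genes at least 100-fold higher, in 63.6% of those of all higher genes and in 63.6% of those of lower genes. It was in 62.8% of windows of all genes compared and in 72.3% of all windows of the table. TAATTG, a homeobox pattern bound by Nobox, was in 13.9% of the windows of genes at least 100-fold higher, 6.54% of all higher, 4.02% of lower, 5.01% of all genes compared and 8.00% of all windows of the table. TAATTA, a further homeobox pattern, was in 6.57% of the windows of genes at least 100-fold higher, 2.47% of all genes compared and 5.29% of all windows. CACGTG, a CpG-holding form of the E-box, was less frequent in the 100-fold class, at 4.38% against 10.4% of all genes compared and 7.15% of all windows. GCGGGAA, a pattern of E2F factors, was in 8.03%, 9.19% and 4.60% in the same order. CACGTG is a special case of CANNTG, and matches to the other patterns may share bases. The windows of genes at least 100-fold higher had a median of 53.0% G and C, against 61.3% over all genes compared, and the part of base composition in these shares was not tested.

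Of 5 gene clusters looked at, 4 had no members called in opposite directions. Tcl1 and Tcl1b1 to Tcl1b5, of a family of Akt coactivators, lie within chr12:105146014-105222793 (GRCm38, GENCODE M21), and all 6 were higher in MII oocytes, from 264 to 8414 FPKM there. Of these, Tcl1 was already at 50.8 FPKM in PGCs. The Oas1 cluster at chr5:120786226-120921652, of genes related to oligoadenylate synthetase, had 6 genes compared and all were higher, from 1.31 to 4107 FPKM in MII oocytes against at most 0.119 FPKM in PGCs. The Obox homeobox genes compared, Obox1, Obox2 and Obox5, lie within chr7:15388721-15759800 and were at 2875 to 4672 FPKM in MII oocytes. On the X chromosome, 12 of 13 Rhox genes within chrX:37213804-38129967 were lower and 0 were higher, with PGC values from 1.02 to 459 FPKM and MII values of at most 1.51 FPKM. The Ifitm genes within chr7:140948958-141017924 were mixed, with 3 of 5 lower and 1 higher. These clusters were chosen after their values were seen, and their members share sequence. The Tcl1b, Oas1 and Obox genes compared were all below 1 FPKM in PGCs and passed the filter only through MII oocytes. As deposited, such genes cannot be called lower. The Rhox genes compared all reached 1 FPKM in PGCs, and those below 1 FPKM in MII oocytes passed the filter only through PGCs. Such genes cannot be called higher. Over all genes compared, 36.0% were higher and 43.7% lower.

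The comparison was then read through 18 lists of genes with known roles, of which 523 genes were compared. The plot of list members shows how the lists spread. Of the lists, 7 had a median difference of at least 1 and 7 a median of at most -1, against a median of -0.46 over all genes compared. With equal sums these became 3 and 11, against -1.83. The oocyte gene families, egg coat and maternal effect lists stayed above 1 on both scales. The counts of each list stand beside 36.0% higher and 43.7% lower over all genes compared, and 21.4% and 59.7% with equal sums. As deposited, a gene compared that is below 1 FPKM in PGCs cannot be called lower, and one below 1 FPKM in MII oocytes cannot be called higher.

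**Figure D3:**
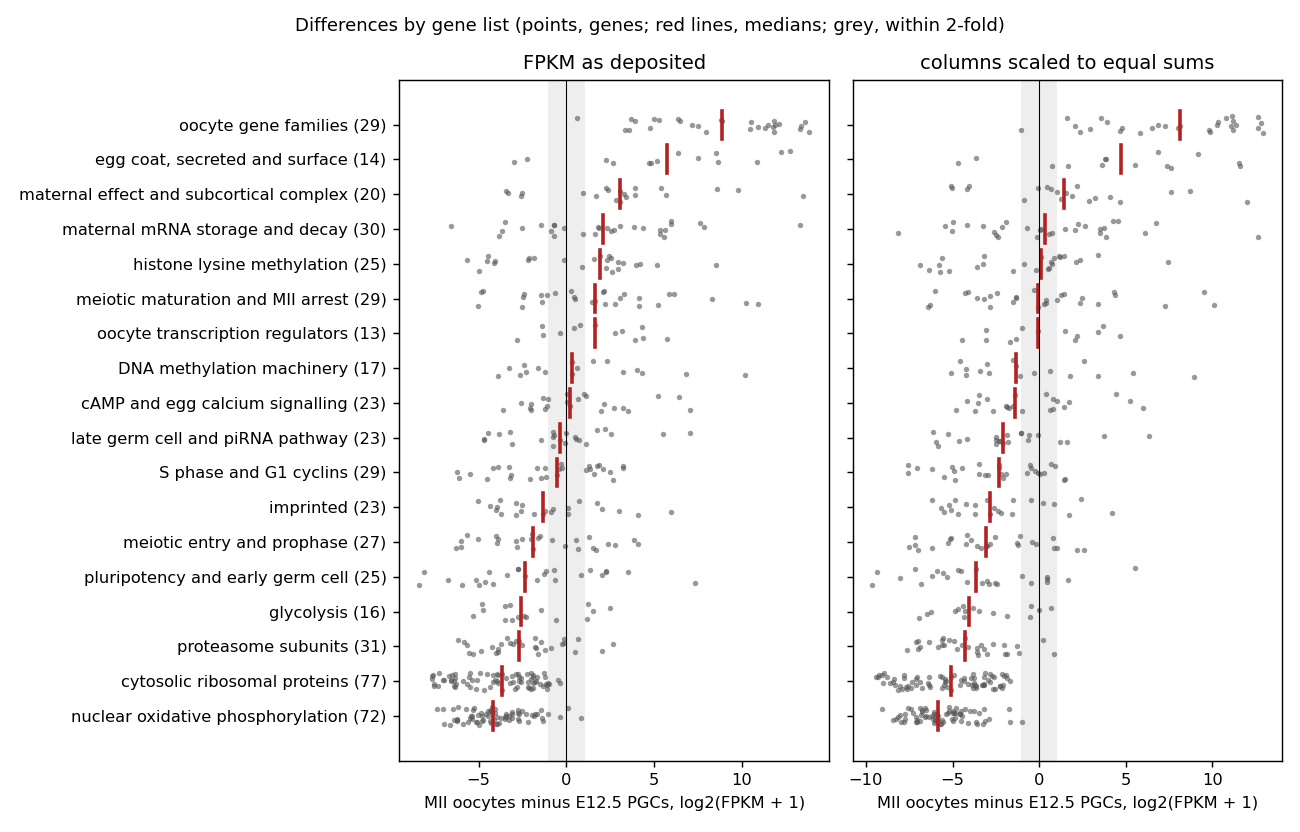
Difference in log2(FPKM + 1), in vivo MII oocytes minus E12.5 PGCs (x axis), for the members of 18 gene lists (rows, 1 point per gene compared), as deposited (left panel) and with equal sums (right panel), with red lines at the medians and grey bands within 2-fold. Ribosomal protein and oxidative phosphorylation genes lie almost wholly to the left, and oocyte gene families to the right.

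Messages of the translation machinery and of mitochondrial respiration made up a larger share of the PGC column than of the MII column. Of 77 cytosolic ribosomal protein genes, 75 were lower and 0 higher. Their median difference was -3.70, and -5.10 with equal sums. Their summed FPKM was 7.44% of the PGC column, 0.859% of the secondary follicle column and 0.0669% of the MII column. Of these genes, 23 were listed at 0 in MII oocytes, and many have processed pseudogene copies, so their single values are uncertain. The 2 that were not lower were Rpl22, at 122 FPKM in PGCs, 29.5 in secondary follicle oocytes and 88.2 in MII oocytes, and Rpl15, at 47.0, 15.9 and 36.8 FPKM in that order, and both were lower with equal sums. Of 72 nuclear genes of oxidative phosphorylation, 69 were lower and 0 higher, and the median difference was -4.17. With equal sums 71 were lower. Their share went from 5.05% through 2.18% to 0.198%. Within 2-fold were Cox8a (245 FPKM in PGCs and 259.6 in MII oocytes), the complex II subunit Sdha (99.6 and 178) and Ndufab1 (2.69 and 1.84). Sdha alone of them stayed within 2-fold with equal sums. At the secondary follicle stage 73 of the 77 ribosomal protein genes were already lower than in PGCs, with a median of -2.31 (29.5% of all genes compared were lower at that stage), but only 28 of the 72 oxidative phosphorylation genes were, with a median of -0.78. Both counts are against the same PGC column as those of MII oocytes.

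The proteasome resembled respiration in this. Of 31 subunit genes, 23 were lower in MII oocytes and 2 were higher, with a median of -2.68, whereas 8 were lower in secondary follicle oocytes, with a median of -0.51. Psmb7, a catalytic subunit of the core, was at 131 FPKM in PGCs, 129 in secondary follicle oocytes and 0.788 in MII oocytes. Psmd3 and Psma2 were the higher ones, Psmd3 of the regulatory cap at 96.9 FPKM in PGCs, 92.5 in secondary follicle oocytes and 611 in MII oocytes and Psma2 of the core ring at 176, 114 and 718 FPKM. With equal sums, 29 of the 31 were lower and 0 were higher. Glycolysis enzymes and transporters had 11 lower and 4 higher members of 16, and a median of -2.57. With equal sums 12 were lower and 0 higher. Aldoa, the muscle-type aldolase, was at 201 FPKM in PGCs, 134 in secondary follicle oocytes and 4.13 in MII oocytes, and the pyruvate kinase gene Pkm at 187, 178 and 5.97 FPKM. Ldhb, the lactate dehydrogenase subunit typical of oocytes, was at 66.6 FPKM in PGCs, 3107 in secondary follicle oocytes and 379 in MII oocytes, higher in the egg as deposited (2.49) and within 2-fold with equal sums (0.69). Gapdh and Eno1 were listed at or near 0 in all 3 groups, which in genes that every cell uses shows that a value of 0 in this table can be a failed estimate.

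**Figure D4:**
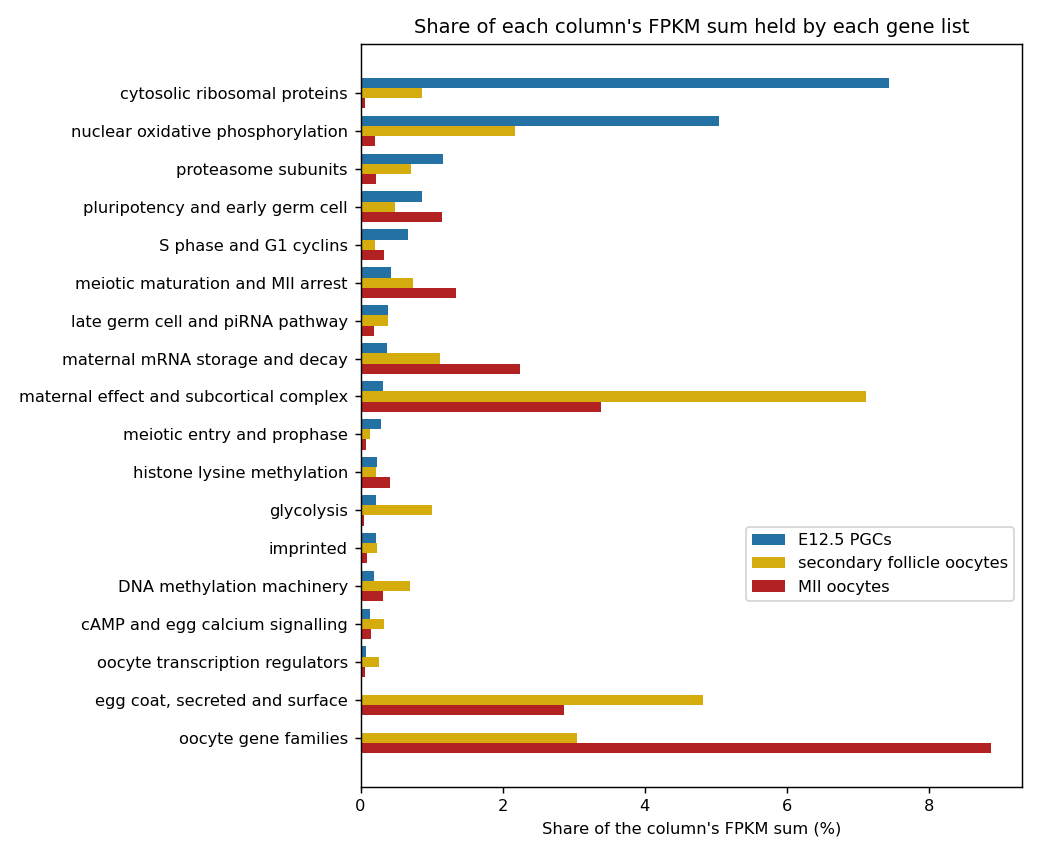
Share of each column's summed FPKM (x axis, percent) held by each gene list (rows) in E12.5 PGCs, secondary follicle oocytes and in vivo MII oocytes. Ribosomal protein genes hold 7.44% in PGCs and 0.0669% in MII oocytes, and oocyte gene families hold 0.0100% and 8.88%.

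Pluripotency and early germ cell genes split. Of 25 compared, 16 were lower, 6 were higher and the median was -2.35. Nanog, a core pluripotency factor, was at 31.9 FPKM in PGCs, 0.00463 in secondary follicle oocytes and 0.0211 in MII oocytes. Dnd1, an RNA-binding protein needed for PGC survival, was at 144 FPKM in PGCs, 0.357 in secondary follicle oocytes and 0.361 in MII oocytes, and Prdm14, a specifier of PGC fate, at 17.3 FPKM in PGCs, 0.0128 in secondary follicle oocytes and listed at 0 in MII oocytes. Other members of the same network were within 2-fold of their PGC level or higher in the egg, as deposited. Pou5f1, partner of Nanog and Sox2, was at 363 FPKM in PGCs, 197 in secondary follicle oocytes and 233 in MII oocytes, within 2-fold as deposited (-0.64) and lower with equal sums (-2.44). Sox2, in contrast, was at 105, 1.10 and 14.9 FPKM, lower than in PGCs at both oocyte stages. Sall4, a zinc finger factor, was at 75.8 FPKM in PGCs, 38.0 in secondary follicle oocytes and 859 in MII oocytes, and the let-7 inhibitor Lin28a at 95.7, 25.8 and 467 FPKM. Tcl1 was at 8414 FPKM in the egg, and the maternal factor Dppa3 at 176 FPKM in PGCs, 452 in secondary follicle oocytes and 839 in MII oocytes. Dppa3 and Lin28a were within 2-fold with equal sums, at 0.44 and 0.48, and 2 members, Sall4 (1.69) and Tcl1 (5.55), stayed higher.

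Of 27 genes of meiotic entry and prophase, 16 were lower in the egg and 7 higher, with a median of -1.91. With equal sums 20 were lower and 3 higher. With no pseudocount, over the members at 1 FPKM or more in both columns, the median turned to 0.61, and that setting leaves out every gene below 1 FPKM in the egg. Stra8, the retinoic acid target that opens meiosis, was at 63.6 FPKM in PGCs, 0.0247 in secondary follicle oocytes and listed at 0 in MII oocytes. Meiotic cohesin subunits were lower too: Stag3 was at 83.6 FPKM in PGCs, 2.74 in secondary follicle oocytes and 0.0571 in MII oocytes and Rec8 at 63.0, 0.0174 and 0 FPKM. Smc1b, a further cohesin subunit, remained in the growing oocyte at 31.8 FPKM and was at 0.568 in MII oocytes, against 78.1 in PGCs. Higher in the egg were the crossover factor Msh4, at 1.74 FPKM in PGCs, 6.24 in secondary follicle oocytes and 44.6 in MII oocytes, and Sycp2, of the chromosome axis, at 4.45, 16.4 and 76.7 FPKM. Sycp3, its partner in the axis, was at 35.6 FPKM in PGCs, 47.3 in secondary follicle oocytes and 57.3 in MII oocytes, a difference of 0.67 as deposited and -1.10 with equal sums. Of 23 genes of later germ cells and the piRNA pathway, 7 were lower and 6 higher, with a median of -0.38. Both counts were below the shares over all genes compared (43.7% lower and 36.0% higher, median -0.46). With equal sums 16 were lower and 4 higher, with a median of -2.09. Over all genes compared, 59.7% were then lower and 21.4% higher, with a median of -1.83. The Argonaute gene Piwil2 was at 31.3 FPKM in PGCs, 27.6 in secondary follicle oocytes and 0.248 in MII oocytes, and Mael, also of the piRNA pathway, at 112, 82.7 and 4.20 FPKM. Nanos2 was at 0.0330 FPKM in PGCs, 28.7 in secondary follicle oocytes and 136 in MII oocytes, and the bromodomain gene Brdt at 13.6, 40.4 and 668 FPKM. The RNA-binding protein gene Dazl was at 432 FPKM in PGCs, 57.7 in secondary follicle oocytes and 414 in MII oocytes, a dip at the secondary follicle stage with near equal levels at the ends (-0.06), and lower with equal sums (-1.87). The helicase gene Ddx4 was at 135, 146 and 82.3 FPKM, a difference of -0.71, and -2.50 with equal sums.

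Genes of the egg coat and of secreted or surface proteins were mostly higher in the egg than in PGCs. Of 14, 12 were higher and 2 lower, with a median of 5.76, against 36.0% higher and 43.7% lower over all genes compared. Of the 14, 9 were below 1 FPKM in PGCs and passed the filter only through MII oocytes. As deposited, such genes cannot be called lower. With equal sums 11 were higher and 2 lower, with a median of 4.72. The coat genes themselves were far more abundant in growing oocytes. Zp3, the coat protein known for sperm binding, was at 1.22 FPKM in PGCs, 5544 in secondary follicle oocytes and 79.8 in MII oocytes, and Zp1 and Zp2 at 1991 and 3870.0 FPKM in secondary follicle oocytes and 35.6 and 37.8 in MII oocytes. The growth factor Bmp15 behaved as Gdf9 did, at 0.849 FPKM in PGCs, 239 in secondary follicle oocytes and 749 in MII oocytes, a difference of 8.66. The secreted protein gene Oosp1 was at 4.67, 568 and 10415 FPKM. Cd9, needed for fusion with sperm, was lower in the egg than in PGCs, at 52.6 FPKM in PGCs, 221 in secondary follicle oocytes and 5.66 in MII oocytes. Zp1, Zp2 and Zp3 were thus highest in secondary follicle oocytes, and so were Fgf8 (59.4 FPKM there and 14.6 in the egg), Oosp2 (320.1 and 185) and the egg protease gene Astl (900.2 and 428). Gdf9, Bmp15 and Oosp1 were highest in the egg as deposited. With equal sums the oocyte stages lay close for Gdf9, at 11.52 above PGCs in MII oocytes and 11.08 in secondary follicle oocytes. The same held for Bmp15 (7.37 and 7.20), whereas Oosp1 stayed further apart (9.18 and 6.47).

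Of 20 maternal effect genes, which the embryo needs from the egg, 15 were higher and 4 lower, with a median of 3.07. Over all genes compared, 36.0% were higher and 43.7% lower. With equal sums 12 of the 20 were higher and 4 lower, with a median of 1.42. Nlrp5, Padi6, Ooep, Tle6 and Khdc3, of the subcortical maternal complex, were high in growing oocytes and lower in the egg, yet above PGCs as deposited. With equal sums Ooep was within 2-fold of PGCs in the egg (0.67), and the others stayed higher. Nlrp5 was at 0.304 FPKM in PGCs, 1766 in secondary follicle oocytes and 64.5 in MII oocytes, and the peptidylarginine deiminase gene Padi6, the most abundant message of secondary follicle oocytes, at 0.894, 6223 and 79.6 FPKM. Npm2, the chaperone that remodels sperm chromatin, was at 0.334 FPKM in PGCs, 1847 in secondary follicle oocytes and 19.0 in MII oocytes. Zar1 and Zbed3 stayed abundant, Zar1 at 0.336 FPKM in PGCs, 1549.9 in secondary follicle oocytes and 1171 in MII oocytes. The lower members were Smarca4, Ube2a, Ago2 and Zfp36l2, broadly expressed genes, with Smarca4 of the SWI/SNF remodeller at 44.2, 36.2 and 3.12 FPKM. Of 29 oocyte family genes, 28 were higher and 0 lower, against 36.0% higher and 43.7% lower over all genes compared. Their median was 8.86. Of the 32 genes listed, 26 were below 1 FPKM in PGCs, so most of those compared passed the filter only through MII oocytes. As deposited, such genes cannot be called lower. The list held 0.0100% of summed FPKM in PGCs, 3.05% in secondary follicle oocytes and 8.88% in MII oocytes. With equal sums 28 were still higher, and 1, Nlrp4c, was lower, at 9.11, 22.6 and 14.6 FPKM.

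Several transcription regulators of oocyte growth were highest in secondary follicle oocytes. Of 13 compared, 7 were higher in the egg than in PGCs and 3 were lower, with a median of 1.65. The median was -0.048 with equal sums and -0.063 with no pseudocount. Nobox, a homeobox factor, was at 0.580 FPKM in PGCs, 367 in secondary follicle oocytes and 13.5 in MII oocytes. Figla, the helix-loop-helix factor that drives the zona genes, was at 2.58 FPKM in PGCs, 117 in secondary follicle oocytes and 1.76 in MII oocytes, a difference of -0.38 and of -1.68 with equal sums. Lhx8, a LIM homeobox factor, was at 0.914, 115 and 12.1 FPKM. Foxo3, which restrains follicle activation, was in contrast highest in the egg, at 17.8, 36.6 and 287 FPKM.

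The machinery that drives maturation and holds the egg in arrest was mixed. Of 29 genes, 16 were higher and 9 lower, with a median of 1.66, against 36.0% higher and 43.7% lower over all genes compared. With equal sums 11 were higher and 13 lower, with a median of -0.078, against 21.4% and 59.7% over all genes compared. Mos, the kinase that sustains the MII arrest, was at 0.135 FPKM in PGCs, 368 in secondary follicle oocytes and 2217 in MII oocytes, a difference of 10.93 and 10.09 with equal sums. Wee2, the Cdk1-inhibiting kinase of oocytes, was at 0.0346 FPKM in PGCs, 111 in secondary follicle oocytes and 1255 in MII oocytes, whereas its somatic counterpart Wee1 was at 55.9, 31.2 and 0.756 FPKM. Fbxo43 (Emi2), which restrains the anaphase-promoting complex in the egg, was at 0.405 FPKM in PGCs, 10.9 in secondary follicle oocytes and 451 in MII oocytes. Cyclin and kinase parted: Ccnb1 was at 32.3, 35.0 and 589 FPKM, and its partner Cdk1 at 31.8, 27.5 and 0.193 FPKM. The checkpoint kinases parted likewise, with Bub1b at 2303 FPKM in the egg against 31.4 in PGCs, and Bub1 at 0.928 against 54.7. Securin, Pttg1, was at 86.3 FPKM in PGCs, 574 in secondary follicle oocytes and 3231 in MII oocytes.

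Of 29 genes of S phase and G1, 14 were lower and 11 higher, with a median of -0.54, near the shares over all genes compared (43.7% lower and 36.0% higher). Top2a, a topoisomerase of dividing cells, was at 109 FPKM in PGCs, 2.82 in secondary follicle oocytes and 0.460 in MII oocytes, and the G1 kinase gene Cdk4 at 135, 11.3 and 0.929 FPKM. The origin recognition gene Orc1 was at 17.6 FPKM in PGCs, 27.5 in secondary follicle oocytes and 174 in MII oocytes and the transcription factor E2f1 at 42.2, 80.9 and 404 FPKM. At the secondary follicle stage 19 of the 29 were lower and 0 higher than in PGCs, with a median of -1.45, where 29.5% of all genes compared were lower and 23.7% higher. Several replication genes were thus lowest in growing oocytes as deposited: Pcna, the sliding clamp, was at 88.3 FPKM in PGCs, 42.1 in secondary follicle oocytes and 262 in MII oocytes and the helicase subunit Mcm2 at 115, 37.5 and 392 FPKM. With equal sums Pcna differed from PGCs by -0.24 and Mcm2 by -0.04, and the list had 2 higher and 18 lower members.

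Of 17 genes of DNA methylation, 7 were higher and 7 lower, with a median of 0.33, near the shares over all genes compared (36.0% higher and 43.7% lower). With equal sums 5 were higher and 10 lower, with a median of -1.33. Tet3, the dioxygenase that acts on the paternal genome after fertilisation, was at 0.671 FPKM in PGCs, 37.8 in secondary follicle oocytes and 1937 in MII oocytes, a difference of 10.18 and 8.95 with equal sums. Tet1, its counterpart in PGCs, was at 17.4 FPKM in PGCs, 0.202 in secondary follicle oocytes and 0.254 in MII oocytes. The maintenance methyltransferase gene Dnmt1 was at 96.2 FPKM in PGCs, 808 in secondary follicle oocytes and 279 in MII oocytes, higher as deposited (1.53) and within 2-fold with equal sums (-0.27). Its cofactor Uhrf1 was at 11.4, 466 and 246 FPKM. Dnmt3l, the cofactor of de novo methylation in oocytes, was at 0.00949 FPKM in PGCs, 54.7 in secondary follicle oocytes and 15.6 in MII oocytes. Zfp57, which protects imprints, was at 1.32, 866 and 260.1 FPKM. Dnmt1, Uhrf1, Dnmt3l and Zfp57 were all highest in secondary follicle oocytes, and Tet3 in the egg.

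Of 25 genes of histone lysine methylation, 14 were higher and 9 lower, with a median of 1.90. With equal sums 7 were higher and 10 lower, with a median of 0.11. The demethylases of H3 lysine 27 were higher, Kdm6b at 0.435 FPKM in PGCs, 18.5 in secondary follicle oocytes and 531 in MII oocytes and Kdm6a at 13.2, 6.88 and 509 FPKM. So were subunits of the Polycomb complex that places that mark, Ezh2 at 54.1 FPKM in PGCs, 118 in secondary follicle oocytes and 994 in MII oocytes and Eed at 31.2, 30.4 and 494 FPKM. Lower were 2 methyltransferases of H3 lysine 9, Suv39h1 at 54.2 FPKM in PGCs, 0.568 in secondary follicle oocytes and 0.0849 in MII oocytes and Ehmt2 (G9a) at 56.1, 19.9 and 0.825 FPKM. Suv39h2, the relative of Suv39h1, was at 15.4, 15.0 and 101 FPKM, higher as deposited (2.63) and within 2-fold with equal sums (0.87).

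Of 30 genes of mRNA storage and decay, 18 were higher and 6 lower, with a median of 2.10. With equal sums 13 were higher and 11 lower, with a median of 0.34. Beside Btg4, the decapping factor Dcp1a was at 10.6 FPKM in PGCs, 31.4 in secondary follicle oocytes and 2678 in MII oocytes, and the deadenylase Cnot7 at 38.0, 22.2 and 1839 FPKM. Cnot6l, also a catalytic deadenylase, was at 6.10, 33.6 and 435 FPKM, whereas the scaffold of the same complex, Cnot1, was lower at 56.7, 60.3 and 3.03 FPKM. Proteins that bind tails and caps also differed by form. The general poly(A)-binding protein gene Pabpc1 was at 315 FPKM in PGCs, 32.4 in secondary follicle oocytes and 2.36 in MII oocytes, and its oocyte form Pabpc1l at 0.199, 177 and 9.03 FPKM. Cpeb1, the regulator of cytoplasmic polyadenylation in prophase oocytes, was at 65.1, 410.4 and 59.9 FPKM, and Cpeb4, which takes over later in maturation, at 1.36, 1.24 and 149.6 FPKM.

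Of 23 genes of cAMP and egg calcium signalling, 10 were higher and 9 lower, with a median of 0.22, near the shares over all genes compared (36.0% higher and 43.7% lower). With equal sums 6 were higher and 12 lower, with a median of -1.38. The phosphodiesterase gene Pde3a, whose product ends prophase arrest by degrading cAMP, was at 0.336 FPKM in PGCs, 25.2 in secondary follicle oocytes and 177 in MII oocytes, and Gpr3, the receptor that keeps cAMP high, at 0.473, 23.1 and 123 FPKM. Itpr1, the main calcium release channel of the egg, was at 8.81 FPKM in PGCs, 24.8 in secondary follicle oocytes and 64.0 in MII oocytes. Orai1, a plasma membrane calcium channel, was lower, at 11.1, 80.1 and 1.96 FPKM. Of 23 imprinted genes compared, 13 were lower and 5 higher, with a median of -1.35, against 43.7% lower and 36.0% higher over all genes compared. With equal sums 17 were lower and 3 higher, against 59.7% and 21.4% over all genes compared. The median of the imprinted genes turned to 0.087 with no pseudocount, and was -0.50 with no filter. H19, a maternally expressed noncoding RNA, was at 32.4 FPKM in PGCs, 0.0256 in secondary follicle oocytes and 0.0248 in MII oocytes, and Peg3, a paternally expressed zinc finger gene, at 40.6, 14.7 and 1.67 FPKM. Mest, paternally expressed in embryos, was higher, at 8.27 FPKM in PGCs, 43.8 in secondary follicle oocytes and 573 in MII oocytes, as was Grb10, an adaptor of insulin signalling, at 3.68, 7.29 and 77.2 FPKM. FPKM per gene does not tell the parental alleles apart.

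Secondary follicle oocytes place each difference in the course of growth. Against the same PGC column, 2959 genes (23.7%) were higher in secondary follicle oocytes and 3683 (29.5%) were lower. With equal sums these were 2643 (21.2%) and 4785 (38.3%). Of the 4493 genes higher in MII oocytes, 1964 (43.7%) were also higher in secondary follicle oocytes, 2174 (48.4%) were within 2-fold of PGCs there and 355 (7.90%) were lower. Of the 5457 genes lower in MII oocytes, 2722 (49.9%) were also lower in secondary follicle oocytes, 2287 (41.9%) were within 2-fold and 448 (8.21%) were higher. With equal sums, 1460 of 2672 higher genes were also higher in secondary follicle oocytes, and 4078 of 7450 lower genes were also lower. Both sets of calls use the PGC column, so they are not independent of each other.

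The classes of the genes named next are those of the deposited scale. Among genes higher only in the egg, Tiparp, a poly-ADP-ribose polymerase gene, was at 11.2 FPKM in PGCs, 19.0 in secondary follicle oocytes and 1921 in MII oocytes, a difference of 7.30 and 5.56 with equal sums. The transcription factor Mxd1, a Myc antagonist, was at 1.59 FPKM in PGCs, 3.27 in secondary follicle oocytes and 327 in MII oocytes, and the chemokine receptor gene Cxcr3 was listed at 0 in PGCs, at 0.929 FPKM in secondary follicle oocytes and at 114 in MII oocytes. Slc6a15, Prrg1 and Gpm6a, genes of membrane proteins, lay at 126 to 157 FPKM in the egg and at or below 1.27 FPKM in the other groups. With equal sums Cxcr3, Slc6a15 and Gpm6a were also called higher in secondary follicle oocytes. Genes lowest in growing oocytes and highest in the egg were led by Gtf2a1, a general transcription factor, at 6.05 FPKM in PGCs, 0.741 in secondary follicle oocytes and 465 in MII oocytes. The phosphatase gene Dusp1 was at 22.3 FPKM in PGCs, 6.95 in secondary follicle oocytes and 445 in MII oocytes. Esyt2, Foxn2, Ncapg2 and Brd1 had the same order of levels, with 240.5 to 605 FPKM in the egg.

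Among genes lower in the egg, some were highest in growing oocytes. The creatine kinase gene Ckb was at 139 FPKM in PGCs, 304 in secondary follicle oocytes and 2.16 in MII oocytes, a difference between the ends of -5.47, and the chaperone gene Hsph1 at 60.8 FPKM in PGCs, 289.7 in secondary follicle oocytes and 1.41 in MII oocytes. Use1, Dmap1, Sssca1 and Bloc1s1 had the same order, with 60.4 to 95.5 FPKM in secondary follicle oocytes and at most 0.445 in the egg. With equal sums Ckb, Use1, Dmap1 and Bloc1s1 were within 2-fold of PGCs in secondary follicle oocytes, and Hsph1 and Sssca1 stayed higher there. Genes that were within 2-fold of PGCs in growing oocytes and lower in the egg were led by Hint1, a nucleotide hydrolase gene, at 330.1 FPKM in PGCs, 177 in secondary follicle oocytes and 1.44 in MII oocytes, and Eif3g, of the translation initiation factor eIF3, at 355 FPKM in PGCs, 202 in secondary follicle oocytes and 2.01 in MII oocytes. Chchd2, Ndufa2 and Atp5o, with mitochondrial products, and H2-Ke2 (Pfdn6), a prefoldin subunit gene, were at 149.7 to 222 FPKM in PGCs and 0.598 to 1.57 in the egg. With equal sums Hint1, Eif3g, Ndufa2 and Atp5o were already lower than in PGCs in secondary follicle oocytes. A further 547 genes were within 2-fold at the ends and higher in growing oocytes. Gtsf1, of the piRNA pathway, was such a gene at 7.57 FPKM in PGCs, 374 in secondary follicle oocytes and 4.01 in MII oocytes, as was Ybx2, a binding protein of stored messages, at 59.7, 771 and 35.7 FPKM. Both were lower in the egg than in PGCs with equal sums, by -2.34 and -2.50.

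**Figure D5:**
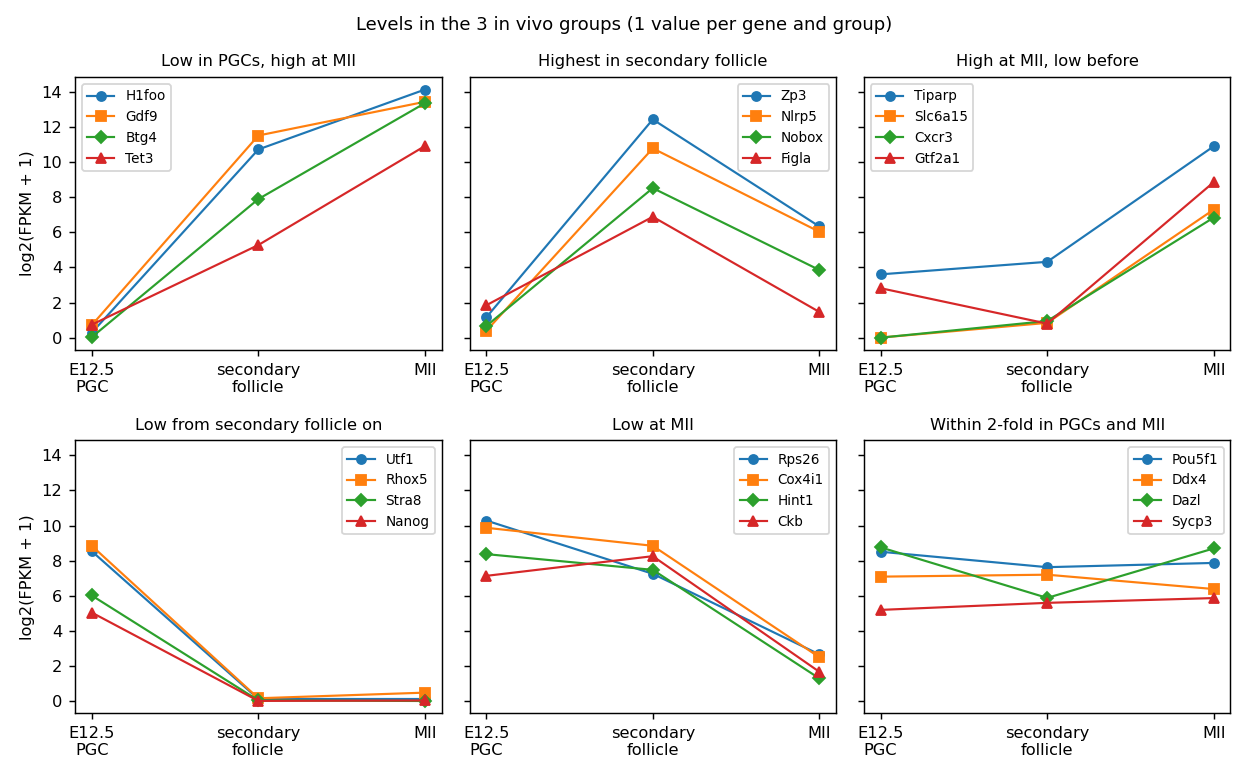
log2(FPKM + 1) (y axis) in E12.5 PGCs, secondary follicle oocytes and in vivo MII oocytes (x axis), 1 line per gene, with a panel for each order of levels. Tiparp is within 2-fold of PGCs in secondary follicle oocytes and high at MII, H1foo is high at both oocyte stages, Utf1 is low at both, and Ckb is high until MII.

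As deposited, genes with longer transcripts were more often higher and those with shorter ones more often lower. Of the 12484 genes, 11886 (95.2%) matched the annotation once, and their longest annotated transcript had a median of 3582.5 nt for higher genes and 2977 nt for lower ones. Among 591 genes under 1000 nt, 23.0% were higher and 63.5% lower, and among 670 genes of 8000 nt and over, 43.7% were higher and 30.4% lower. Without the ribosomal protein, oxidative phosphorylation and proteasome lists and the mitochondrial ribosomal proteins, 26.6% of 508 genes under 1000 nt were higher and 58.3% lower. With equal sums, 23.4% of the 670 longest genes were higher and 48.5% lower. Their median difference was then -0.92, against -3.04 for the 591 shortest. Transcripts of genes at least 100-fold higher had a median of 2513 nt, those at least 100-fold lower 1237.5 nt and all genes matched 3333.5 nt. Genes on the X chromosome made up 2.92% of higher genes, 4.07% of lower genes and 3.63% of all genes matched.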

How the data were processed

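The table deposited by the authors holds FPKM, 1 value per gene and group, for 22784 symbols and 8 groups, of which 3 columns were used. Per the submitters' processing notes, TopHat2, Bowtie2 2.0.13, Cufflinks and Cuffdiff 2.2.1 were used with mm10. A planned fit over samples (limma) was replaced by differences of log2(FPKM + 1), with no test, since values per sample were not in the table. Library totals are not given in the sources used here.

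Genes with at least 1 FPKM in either column were compared and called at a difference of 1. Named genes were the 12 highest and 12 lowest differences, the 6 largest of each secondary follicle class, both with at least 10 FPKM in the higher column and no predicted or clone name, up to 4 called members of each list in each direction, and 18 genes reported in any case. 1 gene that the rule names is not reported here. Other genes were chosen after their values were seen. The members and lists were chosen with earlier results of these data known. Of 551 list symbols, 548 were found. Coordinates are from GENCODE M21, and promoter windows from RefSeq. Steps were tested on simulated data. Python 3.11.15, pandas 2.3.3, NumPy 2.4.6 and matplotlib 3.10.9 were used.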

Additional observations from a re-analysis of the deposited data

How the results depend on the processing

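No paired analysis was possible because the table holds 1 value per group, and for the same reason no replicate could be left out. Higher genes numbered 2672 with equal sums, against 4493. Lower genes numbered 3487 with a pseudocount of 5, 2286 with no pseudocount over genes at 1 FPKM or more in both columns, and 3459 at a 4-fold limit, against 5457. Of called genes, 57.7% were higher with no pseudocount, against 45.2%. Higher genes that were also higher in secondary follicle oocytes numbered 1206, 1181 and 962 under those settings, against 1964, and lower genes also lower there 1438, 916 and 1046, against 2722, or 4089 with equal sums computed without the 100 highest genes. Lists with a median past the limit on the higher side numbered 3 with equal sums, 3 without the 100 highest genes and 4 at 4-fold, against 7. On the lower side they numbered 11 with equal sums and 3 with no pseudocount, against 7. With no pseudocount, the medians of meiotic entry (0.61), oocyte transcription regulators (-0.063) and imprinted genes (0.087) changed sign. With equal sums those of oocyte transcription regulators (-0.048) and meiotic maturation (-0.078) did. Among the genes named, Dnmt1, Mcm2 and Pcna were higher as deposited and below PGCs with equal sums (-0.27, -0.036 and -0.24) and with quantile normalization (-0.49, -0.34 and -0.41), as was Psma2 with quantile normalization (-0.11). Leaving out the ribosomal protein and oxidative phosphorylation lists, an alternative added after seeing the data, gave 4493 higher and 5313 lower genes. The cause of these changes was not tested beyond what each setting does to the values.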

Other observations

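Families of genes outside the lists, chosen by symbol after their values were seen, differed in how far they lay to one side. Over all genes compared, 36.0% were higher and 43.7% lower as deposited, and 21.4% and 59.7% with equal sums. Of 76 mitochondrial ribosomal protein genes, 58 were lower in MII oocytes and 8 higher, with a median difference of -2.80, and with equal sums 66 were lower and 1 higher. All 8 subunit genes of the CCT chaperonin were lower, with a median of -5.30, as were 11 of 12 genes of the initiation factor eIF3, with a median of -5.33. F-box genes, which encode substrate receptors of ubiquitin ligases, were more often higher as deposited: of 63, 36 were higher and 15 lower, with a median of 1.81. With equal sums 27 were higher and 22 lower, with a median of 0.07 against -1.83 over all genes compared. Of 29 kinesin genes, 15 were higher and 8 lower as deposited, and 7 higher and 14 lower with equal sums. Of 291 numbered zinc finger genes, 80 were higher and 128 lower, with a median of -0.78, against -0.46 over all genes compared. Of 34 centrosomal protein genes, 16 were higher and 8 lower (10 and 18 with equal sums). Of 35 Trim genes, 15 were higher and 14 lower (11 and 19 with equal sums), and of 11 genes of small nuclear ribonucleoproteins 4 and 4 (1 and 7). As deposited, the Trim and small nuclear ribonucleoprotein counts were near the shares over all genes compared.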
